A study of Homo sapiens with 16 samples.

Results

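The genes described here carry a signal from adrenoceptors into the cell and then damp it: the alpha-1 adrenoceptors ADRA1A and ADRA1B, the stimulatory G protein gene GNAS, the adenylyl cyclases ADCY6 and ADCY9, the receptor kinases GRK2 and GRK5, the arrestins ARRB1 and ARRB2, and RGS2. They were picked out by gene symbol, with earlier results of these data known, and all 10 have a row among the 58735 genes of the deposited count table. The cells were HepaRG, a human liver line that, once differentiated, holds hepatocyte-like and cholangiocyte-like cells together. For 3 days the cells received 30 nM formoterol with 0.25 mM palmitic and 0.5 mM oleic acid (combination), 30 nM formoterol, the same fatty acids without formoterol, or 1% BSA as vehicle (control). Each group had 4 libraries of polyadenylated RNA, and the culture medium of every group held 2% DMSO, insulin and the glucocorticoid triamcinolone acetonide. The labels name BSA for the control group only. Whether the formoterol, fatty acid or combination cells also received it is not stated in the sources used here. In comparisons with control, a difference in BSA therefore cannot be told apart from the treatment.

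Formoterol is a long-acting agonist of beta adrenoceptors, which activate the stimulatory G protein Gs and through it adenylyl cyclase, so that cyclic AMP is made. Alpha-1 adrenoceptors instead act through Gq and phospholipase C, which release calcium from internal stores, and in liver cells these receptors can also drive glycogen breakdown. Receptors that have been activated are phosphorylated by G protein-coupled receptor kinases and then bound by arrestins, which uncouple them from their G protein. RGS2 speeds up GTP hydrolysis on Gq alpha and is known in several cell types as a gene that cyclic AMP induces.

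The promoters of RGS2 and ARRB2 are shown, and both genes had more RNA with formoterol than in control cells. GNAS was also higher with formoterol, and its 6 windows are not shown. RefSeq promoter windows (build GRCh38.p14, 250 bases before to 50 after the start) were at hand for 6 of the 10 genes, namely ADRA1B, GNAS, GRK2, GRK5, ARRB2 and RGS2. They were searched for the cyclic AMP response element TGACGTCA and for its shorter core TGACG, which reads CGTCA on the other strand and lies inside the full element. The 250 bases before each start are given here on the plus strand, 5′ to 3′, with the core in capitals, for RGS2 at chr1:192808789-192809038 and for ARRB2 at chr17:4710382-4710631.
RGS2 promoter: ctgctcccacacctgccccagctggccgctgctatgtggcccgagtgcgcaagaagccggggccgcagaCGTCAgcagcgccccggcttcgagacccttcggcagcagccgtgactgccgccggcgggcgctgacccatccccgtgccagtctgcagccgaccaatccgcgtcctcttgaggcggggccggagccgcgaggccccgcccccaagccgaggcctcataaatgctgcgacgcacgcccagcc
ARRB2 promoter: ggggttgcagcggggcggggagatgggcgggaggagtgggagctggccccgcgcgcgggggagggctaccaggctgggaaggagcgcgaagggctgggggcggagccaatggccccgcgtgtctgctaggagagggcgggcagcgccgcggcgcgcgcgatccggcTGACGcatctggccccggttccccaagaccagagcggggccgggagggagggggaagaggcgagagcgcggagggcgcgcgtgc
The core begins at base -181 from the RefSeq start in the RGS2 promoter and at base -84 in the ARRB2 promoter. The ARRB2 gene as counted begins at chr17:4710489, before that RefSeq start, so the core and part of the bases shown lie inside it. The core also occurs in 3 of the 6 windows listed for GNAS, whose gene has several starts. None of the windows of these 6 genes holds the full element, which occurs in 1.85% of all 35116 windows in the table. The core alone occurs in 24.6% of them, so its presence is common, and a match describes letters in a window and not a bound site.

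The libraries held between 32471299 counts (fatty acids replicate 2) and 65673126 counts (formoterol replicate 4). Combination replicate 2 stood apart, with a root mean square deviation from its group mean of 0.461 on the log2 scale, against 0.351 to 0.405 in the other libraries. The combination results for the genes that were called or lay near the threshold, apart from cell type markers, are therefore also given without it. Hepatocyte markers were strongly expressed, and all 13 of them passed the filter on low counts. Their summed level was 53660 to 58184 CPM (counts scaled to library size) with formoterol, 48100 to 55868 CPM with fatty acids and 24281 to 36619 CPM in controls. In combination libraries it was 21112 CPM in replicate 2 and 48290, 53656 and 51084 CPM in replicates 1, 3 and 4. Of the 13 markers, 9 rose with formoterol against control and 0 fell. Over all genes tested, 10.3% changed there in either direction (edgeR adjusted p below 0.05). With fatty acids against control 7 rose and 1 fell, beside 16.5% of all genes, and for combination against control 6 rose and 2 fell, beside 14.3%. For combination against fatty acids 1 rose and 1 fell, beside 2.80% of all genes, and for combination against formoterol 1 rose and 6 fell, beside 18.4%. For the difference between the effects of formoterol with and without fatty acids, 0 were higher and 10 lower, beside 5.50% of all genes. Counts of changed markers are given with combination replicate 2 included, and its weight in them was not tested. The part of these shifts in the results below was not tested. Cholangiocyte markers summed to 256 to 334 CPM in combination libraries, 190 to 200 CPM with formoterol, 317 to 370 CPM with fatty acids and 164 to 169 CPM in controls, and EPCAM, one of the defining markers, had 0 counts in all libraries. Markers of other cell types were mixed. Of 6 endothelial markers CDH5 was at 0 counts and 2 were tested, but KDR averaged 98.8 CPM, and the list summed to 52.6 to 107 CPM in combination libraries, 38.9 to 50.6 CPM with formoterol, 158 to 171 CPM with fatty acids and 117 to 133 CPM in controls. KDR fell with formoterol against control by 1.44 ± 0.15 on the log2 scale (edgeR adjusted p = 3.71e-06), and its part in the results below was not tested either. Of 8 stellate cell and fibroblast markers COL1A2 was at 0, while PDGFRB averaged 50.1, LRAT 15.8 and ACTA2 11.6 CPM, and the list summed to 68.5 to 96.3 CPM over all libraries. Of 7 macrophage and leukocyte markers PTPRC and CD68 had 13 counts each over all 16 libraries and CD14 averaged 22.6 CPM, with sums of 12.7 to 32.4 CPM. Of 3 smooth muscle markers CNN1 was at 0 and TAGLN averaged 3.93 CPM, with sums of 2.80 to 6.32 CPM. In bulk RNA from mixed cells, fewer cells of a type and less RNA per cell cannot be told apart.

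Levels are TMM-scaled CPM, a measure of a gene's share of its library, and 9 of the 10 genes passed the filter on low counts, ADRA1B being the exception. A gene is called changed where the edgeR quasi-likelihood test gives a Benjamini-Hochberg adjusted p below 0.05 over all 18121 genes tested. Between formoterol and control, 4 of the 9 genes were called, with RGS2, GNAS and ARRB2 higher and ADRA1A lower, against 10.3% of all genes tested. The libraries of these groups did not overlap for the same 4 genes, against 16.7% of all genes. Between fatty acids and control 1 of 9 was called (RGS2, lower), against 16.5% of all genes, and 1 gene (ADCY6) had no overlap, against 21.0%. Between combination and control 2 of 9 were called (RGS2 and ARRB1, both higher), against 14.3%, and 3 had no overlap (RGS2, ADRA1A and GRK2), against 16.3%. Between combination and fatty acids 1 of 9 was called (RGS2, higher), against 2.80%, and the same gene alone had no overlap, against 9.34%. Between combination and formoterol 1 of 9 was called (ADRA1A, higher), against 18.4%, and 2 had no overlap (ADRA1A and GRK2), against 21.1%. The difference between the effect of formoterol with and without fatty acids passed the test for 2 of 9, ADRA1A and RGS2, against 5.50% of all genes. The median log2 change of the 9 genes was 0.09 for formoterol against control, 0.17 for combination against control and 0.02 for combination against fatty acids, beside 0.00 over all genes tested in each of these comparisons. It was 0.10 for fatty acids against control, 0.08 for combination against formoterol and -0.02 for the difference of effects, beside 0.01 over all genes in each.

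**Figure D1:**
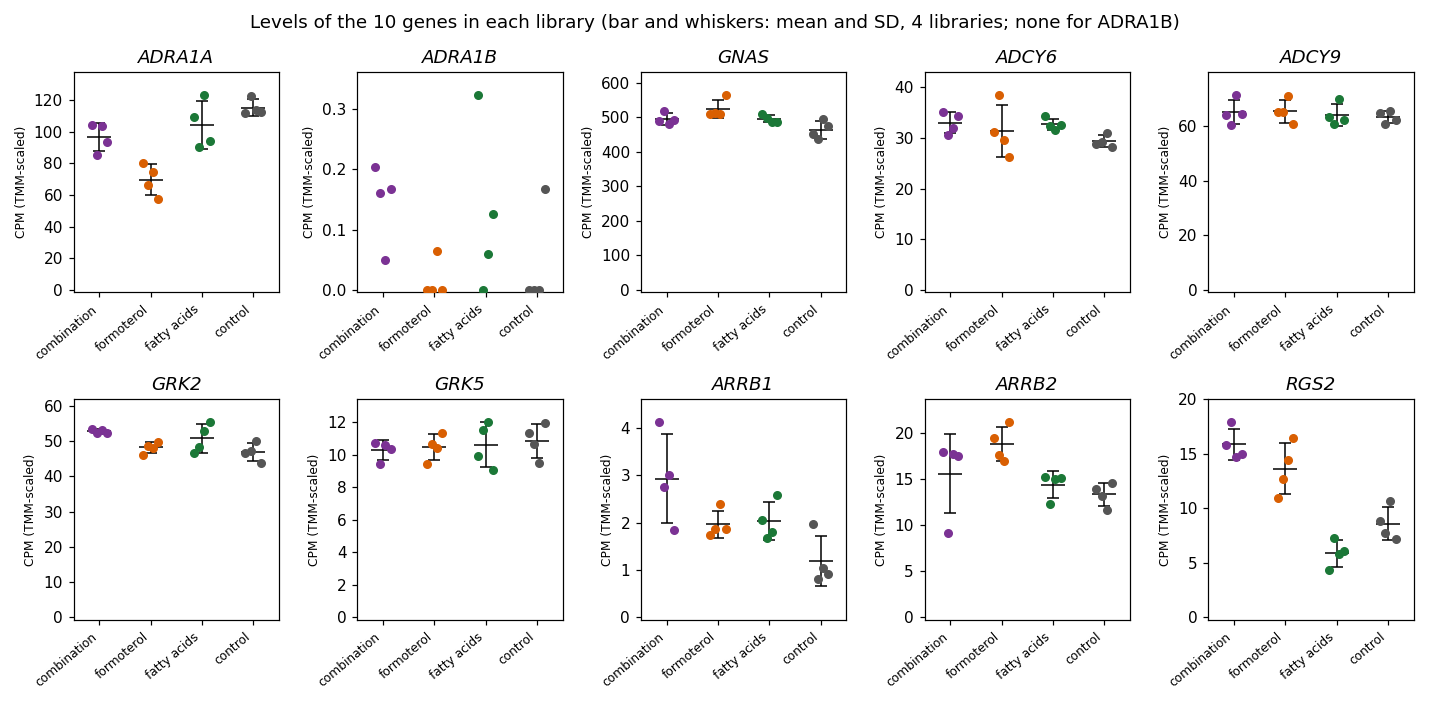
Level of each of the 10 genes in every library, in TMM-scaled CPM on axes that start at 0, with 4 points per group and, except for ADRA1B, the group mean and SD as bar and whiskers. ADRA1A is lowest in the 4 formoterol libraries (57.4 to 80.1 CPM), RGS2 is lowest in the fatty acid libraries, with 1 library, at 7.31 CPM, above the lowest control, and 1 combination library of ARRB2 lies far below the other 3.

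Of the receptors, ADRA1A was abundant and ADRA1B almost absent. ADRA1A (ENSG00000120907, chr8:26748150-26867273, minus strand, build GRCh38) encodes the alpha-1A adrenoceptor, a Gq-coupled receptor for adrenaline and noradrenaline. Its level was 104, 85.4, 104 and 93.9 CPM in the combination libraries, 80.1, 66.5, 74.7 and 57.4 CPM with formoterol, 109, 90.2, 123 and 94.1 CPM with fatty acids, and 112, 123, 114 and 112 CPM in controls, replicates 1 to 4 in each group. All 4 formoterol libraries lay below every library of the other 3 groups, and all 4 combination libraries lay below every control library.

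With formoterol ADRA1A fell to 69.7 ± 9.93 CPM, against 115 ± 5.15 CPM in controls (SD, n = 4 each). The log2 change was -0.73 ± 0.10 (SE), a change of -39.7% with a 95% interval of -47.8% to -30.3% (edgeR adjusted p = 0.000110). By p-value it ranked 64 of the 18121 genes in that comparison. In the presence of fatty acids the same addition gave 96.9 ± 9.03 CPM in combination cells and 104 ± 15.1 CPM in fatty acid cells (SD, n = 4 each), a log2 difference of -0.11 ± 0.10 that was not called (edgeR adjusted p = 0.712). Its 95% interval, -19.5% to 7.33%, does not reach the size of the change without fatty acids. The difference between these 2 effects of formoterol was itself called, at 0.62 ± 0.14 on the log2 scale (edgeR adjusted p = 0.0140). Combination cells had more ADRA1A RNA than formoterol cells, with a log2 change of 0.48 ± 0.10 (edgeR adjusted p = 0.00206). Against control, the log2 difference was -0.25 ± 0.10 in combination cells (edgeR adjusted p = 0.102) and -0.15 ± 0.10 in fatty acid cells (edgeR adjusted p = 0.366), and neither was called.

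The calls for ADRA1A held when any 1 of the 16 libraries was left out, and without combination replicate 2 the difference between the effects was 0.68 ± 0.13 (edgeR adjusted p = 0.00163). Without that library combination against formoterol was 0.53 ± 0.10, against fatty acids -0.05 ± 0.10 and against control -0.20 ± 0.10, the last with an adjusted p of 0.202. The value that missed the threshold, combination against control, passed it in other fits, with an adjusted p of 0.0176 without a filter on low counts and 0.0454 when only these 2 groups were fitted. Both pseudogenes annotated inside ADRA1A had few counts, the larger at 0.0190 times those of ADRA1A.

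ADRA1B (ENSG00000170214, chr5:159865080-159972544, plus strand), the alpha-1B receptor, had 47 counts over all 16 libraries and was not tested. Its counts were 7, 6, 2 and 6 in combination libraries, 0, 0, 2 and 0 with formoterol, 11, 0, 2 and 5 with fatty acids, and 0, 0, 0 and 6 in controls. All groups overlapped, and with no filter the smallest adjusted p was 0.228, for combination against formoterol. A count of 0 allows a level of up to 3 counts, which is 0.0505 to 0.0966 CPM in these libraries and covers counting error only.

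GNAS (ENSG00000087460, chr20:58839718-58911192, plus strand) encodes the alpha subunit of Gs, which couples receptors to adenylyl cyclase. It had 489, 518, 479 and 491 CPM in combination libraries, 510, 513, 509 and 563 CPM with formoterol, 510, 499, 487 and 487 CPM with fatty acids, and 450, 436, 494 and 475 CPM in controls. All formoterol libraries were above all controls, while the other comparisons overlapped. The log2 change for formoterol against control was 0.18 ± 0.05 (edgeR adjusted p = 0.0430), a rise of 13.0% with a 95% interval of 4.40% to 22.2%. The call was not stable: it was lost on leaving out any 1 of 13 of the 16 libraries (log2 0.14 to 0.19, adjusted p 0.0516 to 0.150), and kept only without control replicate 3, combination replicate 2 or combination replicate 3. It was also lost without a filter on low counts (adjusted p = 0.0945), and with total counts as the scaling the change was 0.04 (edgeR adjusted p = 0.732). The counts pool all transcripts of this locus, which has several starts.

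Neither adenylyl cyclase, the enzymes that make cyclic AMP from ATP, was called in any of the 6 comparisons by edgeR or by DESeq2, nor had either an unadjusted p below 0.05. ADCY6 (ENSG00000174233, chr12:48766194-48789037, minus strand) averaged 33.1 ± 2.13 CPM in combination cells, 31.4 ± 5.16 CPM with formoterol, 32.7 ± 1.13 CPM with fatty acids and 29.4 ± 1.23 CPM in controls (SD, n = 4 each). The fatty acid libraries of ADCY6 did not overlap the controls, yet that change of 0.16 ± 0.09 on the log2 scale was not called (edgeR adjusted p = 0.279). ADCY9 (ENSG00000162104, chr16:3953387-4116185, minus strand) averaged 65.1 ± 4.49 CPM in combination cells, 65.4 ± 4.21 CPM with formoterol, 64.1 ± 4.02 CPM with fatty acids and 63.4 ± 2.20 CPM in controls (SD, n = 4 each), and its groups overlapped throughout. For formoterol against control the 95% interval was -6.39% to 21.7% for ADCY6 and -6.30% to 13.5% for ADCY9.

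The 2 receptor kinases were likewise called in none of the 6 comparisons by edgeR or by DESeq2, with 1 unadjusted p below 0.05, that of GRK2 for combination against control. GRK2 (ENSG00000173020, chr11:67266410-67286556, plus strand), which phosphorylates active receptors, averaged 52.8 ± 0.563 CPM in combination cells, 48.2 ± 1.51 CPM with formoterol, 50.8 ± 4.05 CPM with fatty acids and 47.0 ± 2.51 CPM in controls (SD, n = 4 each). The 4 combination libraries of GRK2 lay within 52.3 to 53.4 CPM, above all formoterol and all control libraries. The log2 change for combination against control was 0.17 ± 0.06, a 95% interval of 2.55% to 23.4%, and missed the threshold (edgeR adjusted p = 0.0858). For combination against formoterol it was 0.13 ± 0.06 (edgeR adjusted p = 0.173), and with total counts as the scaling 0.27 with an adjusted p of 0.0126. Without combination replicate 2 these GRK2 values were 0.17 ± 0.07 against control (adjusted p = 0.112) and 0.13 ± 0.07 against formoterol (adjusted p = 0.241). GRK5 (ENSG00000198873, chr10:119207589-119459742, plus strand), a membrane-bound kinase of the same family, averaged 10.3 ± 0.598 CPM in combination cells, 10.5 ± 0.795 CPM with formoterol, 10.6 ± 1.37 CPM with fatty acids and 10.8 ± 1.04 CPM in controls (SD, n = 4 each), with overlap between all groups.

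The arrestins differed in level and in where they were called. ARRB2 (ENSG00000141480, chr17:4710489-4721499, plus strand), which encodes beta-arrestin-2, had 17.9, 9.18, 17.7 and 17.5 CPM in combination libraries, 19.4, 17.6, 16.97 and 21.1 CPM with formoterol, 15.2, 12.2, 15.0 and 15.2 CPM with fatty acids, and 13.9, 13.1, 11.6 and 14.6 CPM in controls. All formoterol libraries exceeded all controls, and the combination libraries also did so apart from replicate 2. The log2 change for formoterol against control was 0.50 ± 0.16 (edgeR adjusted p = 0.0452). This call was lost on leaving out any 1 of 11 libraries (log2 0.43 to 0.54, adjusted p 0.0545 to 0.143). These were each control, each formoterol library and fatty acid replicates 1, 3 and 4. The call was also lost with total counts as the scaling (adjusted p = 0.0861). Without combination replicate 2 the change for formoterol against control was 0.50 ± 0.10 and stayed called (edgeR adjusted p = 0.00129). Against control, the combination gave 0.23 ± 0.16 with all libraries (edgeR adjusted p = 0.405). Without combination replicate 2 this was 0.41 and was called (edgeR adjusted p = 0.0109).

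ARRB1 (ENSG00000137486, chr11:75264182-75351705, minus strand), which encodes beta-arrestin-1, was low, with 28 to 141 counts per library. Its level was 4.12, 2.75, 3.02 and 1.84 CPM in combination libraries, 1.74, 1.87, 2.38 and 1.87 CPM with formoterol, 2.05, 1.68, 1.81 and 2.58 CPM with fatty acids, and 1.96, 0.812, 1.04 and 0.922 CPM in controls. Control replicate 1 lay inside the range of every other group, and the other 3 controls lay below all of them. ARRB1 rose in combination cells against control by a log2 value of 1.31 ± 0.29 (edgeR adjusted p = 0.00346), although these groups overlapped, and without combination replicate 2 the value was 1.34 ± 0.31. Formoterol and fatty acids given singly had log2 values of 0.73 ± 0.29 (edgeR adjusted p = 0.121) and 0.78 ± 0.29 (edgeR adjusted p = 0.0737) against control. Without control replicate 1 both passed, at 1.09 (adjusted p = 0.0221) for formoterol and 1.14 (adjusted p = 0.0111) for fatty acids. Within a library, the ratio of ARRB2 to ARRB1 ranged from 4.45 to 12.7 in combination cells, 9.49 to 15.1 with formoterol, 7.84 to 11.1 with fatty acids and 9.47 to 21.6 in controls, taken from CPM per kilobase of exon, and these ranges overlap.

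RGS2 (ENSG00000116741, chr1:192809039-192812283, plus strand) was the gene with the most calls. It had 15.8, 17.9, 14.7 and 15.0 CPM in combination libraries, 11.0, 12.7, 14.4 and 16.5 CPM with formoterol, 4.31, 7.31, 5.77 and 6.07 CPM with fatty acids, and 8.82, 7.74, 10.6 and 7.21 CPM in controls. Every library with formoterol, with or without fatty acids, was above every library without it. Among libraries without formoterol, 3 of the 4 fatty acid libraries were below all controls.

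RGS2 rose with formoterol against control by a log2 value of 0.67 ± 0.16 (edgeR adjusted p = 0.00834). It fell with fatty acids against control by 0.55 ± 0.16 on the log2 scale (edgeR adjusted p = 0.0204), a call that was lost without control replicate 3 (adjusted p = 0.0884) or fatty acid replicate 1 (adjusted p = 0.0703). When formoterol was added to fatty acids the log2 change was 1.44 ± 0.16 (edgeR adjusted p = 8.19e-06), a 2.70-fold higher level in combination than in fatty acid cells, which ranked 26 of 18121 genes by p-value. Combination against control gave 0.88 ± 0.16 (edgeR adjusted p = 0.000382), and combination against formoterol 0.21 ± 0.15, which was not called (edgeR adjusted p = 0.368). Without combination replicate 2 the rise over fatty acids was 1.37 ± 0.16 and that over control 0.82 ± 0.16, and the uncalled difference from formoterol was 0.15 ± 0.16.

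The effect of formoterol on RGS2 was greater with fatty acids than without them by 0.77 ± 0.22 on the log2 scale (edgeR adjusted p = 0.0445). That call was lost on leaving out any 1 of 10 libraries, with values of 0.65 to 0.79 and adjusted p of 0.0614 to 0.116. These were control replicates 1 and 3, formoterol replicates 1, 2 and 3, fatty acid replicates 1, 3 and 4, and combination replicates 1 and 2. A lincRNA on the opposite strand, AL390957.1, overlaps RGS2 and had 0.0536 times its counts, and the sources used here do not say whether counting used strand.

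**Figure D2:**
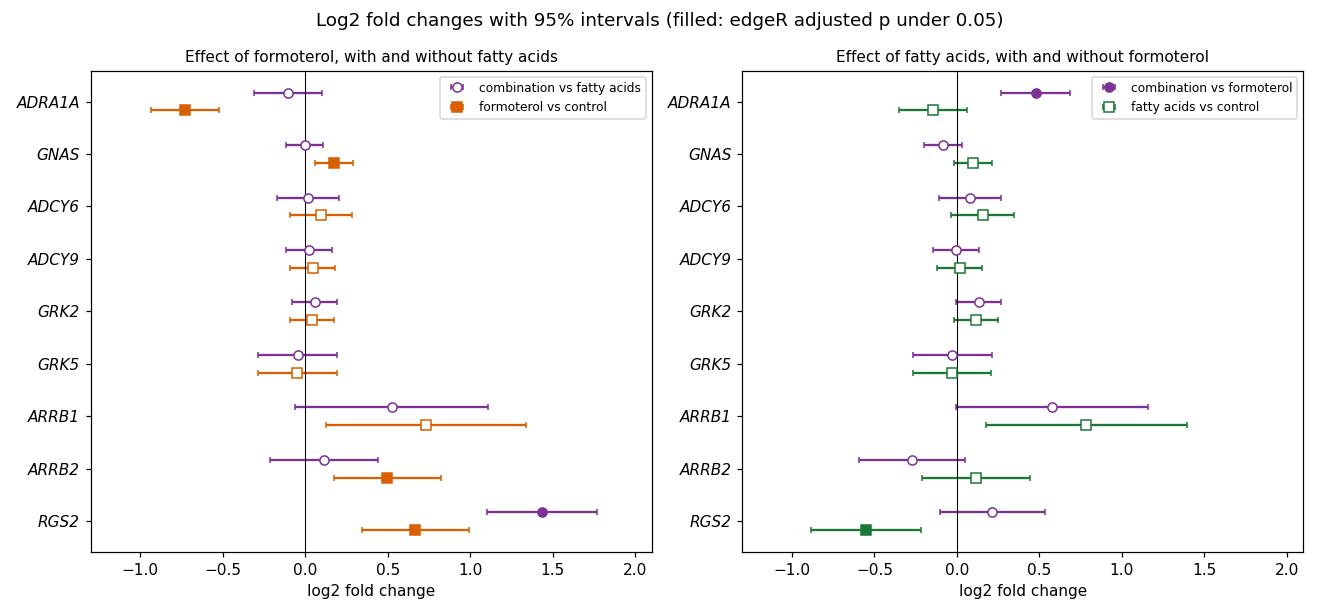
Log2 fold changes of the 9 tested genes with 95% intervals; the left panel shows formoterol with fatty acids (circles) and without (squares), the right panel fatty acids with formoterol (circles) and without (squares), and filled symbols passed the edgeR test. For ADRA1A the effect of formoterol is -0.73 without fatty acids and -0.11 with them, while for RGS2 it is 0.67 and 1.44.

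Per kilobase of exon, which allows genes to be compared, GNAS was the most abundant of the 10 genes at a mean of 37.1 CPM per kb over the 16 libraries, above 95.2% of the genes tested. ADRA1A followed at 16.5 CPM per kb, above 87.7% of genes, then GRK2 at 7.46, ADCY9 at 6.23, RGS2 at 5.25, ADCY6 at 3.76, ARRB2 at 3.55, GRK5 at 1.51 and ARRB1 at 0.348 CPM per kb, with ADRA1B at 0.0307. GNAS, ADRA1A and GRK2 held the first 3 places in each group, and GRK5, ARRB1 and ADRA1B the last 3. The place of RGS2 varied: it held place 4 in combination and formoterol cells, place 7 in fatty acid cells and place 5 in controls. In combination cells the neighbours GRK2 and RGS2 overlapped in their libraries, as did ADCY6 and ARRB2. With formoterol GRK2 and RGS2, RGS2 and ADCY9, and ARRB2 and ADCY6 overlapped, with fatty acids ARRB2 and RGS2, and in controls RGS2 and ADCY6. All other neighbours were separate in every library of their group. ADRA1A was 11.9 ± 1.70 CPM per kb with formoterol and 19.7 CPM per kb in controls, and kept its place below GNAS in both.

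**Figure D3:**
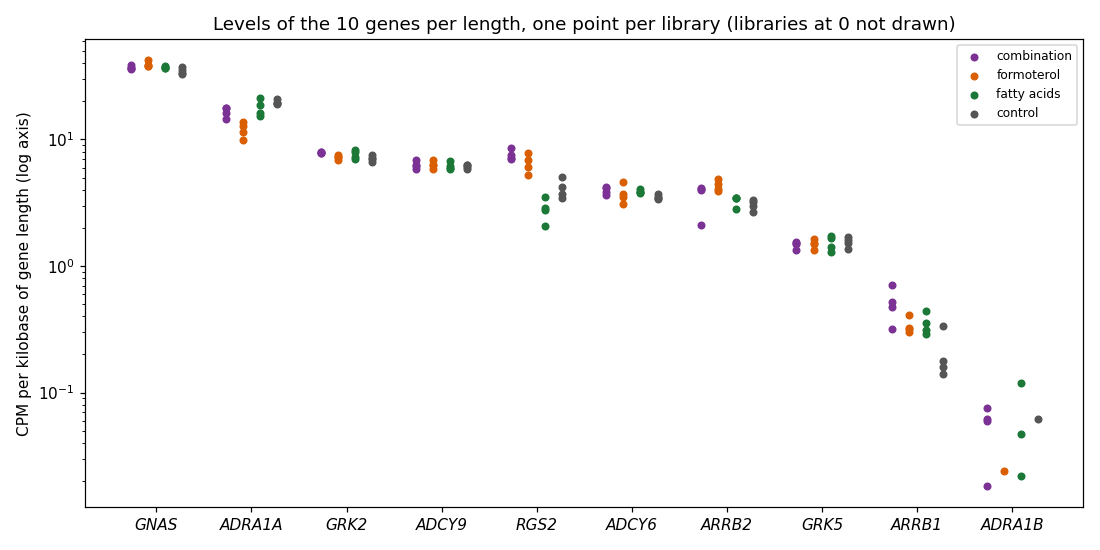
Level of each gene per kilobase of exon in the 4 groups, in CPM per kb on a log axis, with 1 point per library and libraries at 0 (ADRA1B) not drawn. The order is led by GNAS, ADRA1A and GRK2 in each group, and RGS2 shifts place between groups.

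The genes whose pattern over the 16 libraries was most like that of a called gene were searched among 11564 protein-coding genes, by the mean absolute difference of log2 CPM after centring each gene. For ADRA1A these were ZBTB16, ACACB and BTG2, at 0.103, 0.110 and 0.123, beside 0.253 for the mean deviation of ADRA1A itself. ACACB, which encodes a mitochondrial acetyl-CoA carboxylase, averaged 184 CPM in combination cells, 159 CPM with formoterol, 218 CPM with fatty acids and 246 CPM in controls. For RGS2 they were KYNU, RASD1 and HOPX at 0.193, 0.214 and 0.223, beside 0.537 for RGS2 itself. RASD1, a small Ras-like GTPase induced by glucocorticoids, averaged 29.1 CPM in combination cells, 23.6 CPM with formoterol, 9.96 CPM with fatty acids and 14.6 CPM in controls. For ARRB2 they were XBP1, SHMT2 and SHMT1, at 0.0829 to 0.0911, beside 0.231 for ARRB2 itself. For ARRB1 they were NCAPH, SLC12A8 and LIPH, at 0.290 to 0.295 beside 0.412, and for GNAS TMED4, PPM1G and TRA2B, at 0.0310 to 0.0464 beside 0.0590, so the likeness is weak for both.

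Of 61 tested genes of 7 further pathway lists, with RGS5 present under 2 gene IDs, 6 were called for formoterol against control, or 9.84%, near the 10.3% of all genes. For combination against fatty acids 2 were called, or 3.28% beside 2.80% of all genes, and for the difference between the effects 3, or 4.92% beside 5.50%, so these counts say nothing particular about the pathway. For formoterol against control, 2 of 10 other G protein alpha subunits were higher and 0 lower: GNAI2 (log2 0.23 ± 0.06) and GNAI3 (0.29 ± 0.06), which encode inhibitory alpha subunits. Of 9 Gq effectors and calcium genes, the inositol trisphosphate receptors ITPR1 (-0.33 ± 0.09) and ITPR3 (-0.60 ± 0.11) fell, and protein kinase C epsilon, PRKCE (0.29 ± 0.08), rose. SLC9A3R1, a PDZ-domain scaffold protein, was the only 1 of 11 chaperone and trafficking genes called, at 0.40 ± 0.08. Called by edgeR were 0 of 6 other adenylyl cyclases (2 with an unadjusted p below 0.05), 0 of 10 beta and gamma subunits (1), 0 of 3 other receptor kinases (0) and 0 of 12 other RGS gene IDs (1). DESeq2 also called 0 in each of these lists. With total counts as the scaling, GNAI2, GNAI3 and PRKCE kept their direction and were no longer called. Under that scaling 1 other adenylyl cyclase and 1 other RGS gene ID were called lower. Of the chaperone and trafficking genes 2 were then called, 1 higher and 1 lower. When formoterol was added to fatty acids, GNAI1 (-0.29 ± 0.06) and RGS3 (-0.55 ± 0.13) fell, the call for GNAI1 being lost with total counts as the scaling (adjusted p = 0.0807). Without combination replicate 2 GNAI1 was -0.33 ± 0.06 and stayed called, while RGS3 was -0.47 ± 0.13 and was not (adjusted p = 0.0502). No other gene of the 7 lists was called there by edgeR, while DESeq2 also called GNG11 and RIC8A. The effect of formoterol differed with and without fatty acids for ITPR1 (0.45 ± 0.12) and ITPR3 (0.63 ± 0.16), as for ADRA1A in the same direction, and for GNAI3 (-0.34 ± 0.08, not called with total counts) in the opposite one. Without combination replicate 2 the values were 0.42 ± 0.13 for ITPR1, no longer called (adjusted p = 0.0546), 0.53 ± 0.14 for ITPR3 and -0.33 ± 0.09 for GNAI3, both still called, and GNAI1 was also called (-0.32 ± 0.09). Of 10 genes that cyclic AMP is known to induce, 5 rose and 0 fell for formoterol against control, with NR4A3 at 1.19 ± 0.17. With total counts as the scaling 4 rose and 1 fell there. For combination against fatty acids 5 rose and 0 fell, with NR4A3 at 1.99 ± 0.18 (1.92 ± 0.18 without combination replicate 2). For fatty acids against control 1 rose and 6 fell, beside 16.5% of all genes called. For combination against control 3 rose and 2 fell, beside 14.3%, and for combination against formoterol 0 rose and 4 fell, beside 18.4%. Without combination replicate 2, NR4A3 (edgeR adjusted p = 0.0399) and SIK1 (edgeR adjusted p = 0.0470) were also called lower for combination against formoterol. For the difference between the effects edgeR called 0 of these genes, while DESeq2 called NR4A3 and PDE4D. These lists were drawn up with earlier results of these data known.

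**Figure D4:**
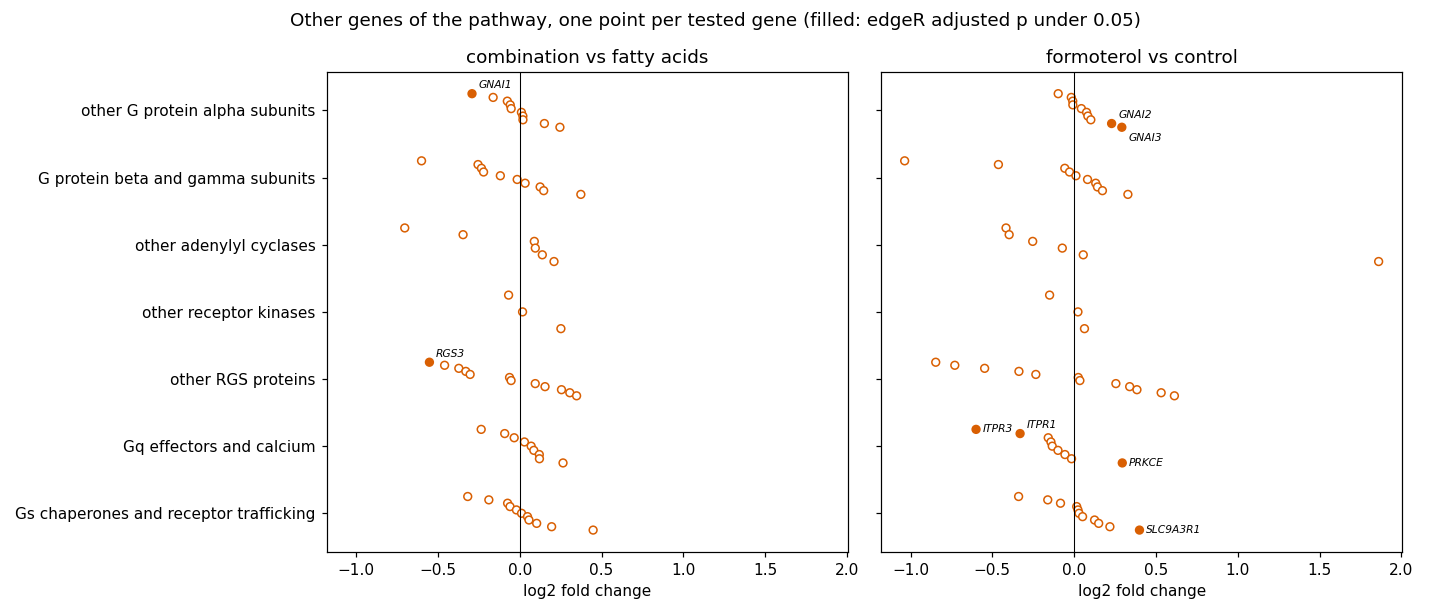
Log2 fold change of each tested gene of 7 pathway lists (rows) for combination against fatty acids (left) and formoterol against control (right), with 1 point per gene ID, and filled, named points where the edgeR adjusted p was below 0.05. Named points are few in both panels, with GNAI1 and RGS3 on the left and GNAI2, GNAI3, ITPR1, ITPR3, PRKCE and SLC9A3R1 on the right.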

How the data were processed

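Polyadenylated RNA of 16 HepaRG libraries (4 groups of 4) was sequenced, and the authors deposited 1 table of raw gene counts, from which everything here was computed. Per the submitters' processing notes the tools included HISAT2 2.0.5 and DESeq2. Those notes also list mm39, a mouse build, whereas each of the 58735 gene IDs in the table is human, with names and coordinates of GENCODE release 29 (GRCh38). The sources used here name neither the counting program nor its strand setting. Among counts of 1 to 10, 57.6% were even, with 23903 values of 2, 18373 of 1 and 10382 of 3; the sources used here do not say whether read mates were counted separately, in which case counting error would be larger than the counts show.

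Genes were filtered with edgeR's filterByExpr (18121 kept, 40614 left out), scaled by TMM and fitted with edgeR 4.0.16 (R 4.3.3), using glmQLFit and glmQLFTest with a mean for each of the 4 groups over all 16 libraries, which share 1 estimate of the spread (12 residual degrees of freedom). The 6 comparisons were formoterol, fatty acids and combination against control, combination against each single treatment, and the difference between the effects of formoterol with and without fatty acids. P-values were adjusted by Benjamini-Hochberg over all genes tested, with a threshold of 0.05. Errors of log2 changes are standard errors from the quasi-likelihood F. CPM are counts scaled to the TMM-adjusted library total, and CPM per kb divides by the deposited gene length. Totals per library were 32471299 to 65673126 counts, so precision at the level of ARRB1 or ADRA1B is set by few counts.

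The labels call the libraries independent replicates, and whether they are separate cultures is not stated, so p-values measure the spread between these libraries, which may be technical. No pair of libraries of a group agreed within sampling noise (chi-square per gene 6.62 or more). Named genes are all members, the called genes of the pathway lists (1 list is not reported here) and the 3 genes most like each called member (protein-coding, mean of at least 2 CPM, not overlapping it). The members and lists were chosen with earlier results of these data known. Alternatives were DESeq2 1.42.0 size factors and Wald test, total counts, no filter, at least 1 CPM in 4 libraries, a replicate block, only the groups compared, and each library left out. The fitting was tested on simulated data.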

Additional observations from a re-analysis of the deposited data

Results flagged for a closer look

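Among 40 sets of 4 libraries (10 genes in 4 groups), 5 had 1 library far from the other 3 by Dixon's ratio. For 2 of the 5, both of ADRA1B, the other 3 libraries were at 0, so the ratio is 1 whatever the remaining value, and they cannot be read against chance; for the other sets chance gives about 1 in 20. ARRB2 had 9.18 CPM in combination replicate 2, against 17.5 to 17.9 CPM in the other 3 libraries of that group, and this library also stood apart over all genes. ARRB2 had 12.2 CPM in fatty acids replicate 2, against 15.0 to 15.2 CPM in the others. GNAS had 563 CPM in formoterol replicate 4, the library with the most counts, against 509 to 513 CPM in the others. ADRA1B had 0.0644 CPM in formoterol replicate 3 and 0.168 CPM in control replicate 4, where the other 3 libraries of each group were at 0, and these levels are 2 and 6 counts.

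Of 9 tests of whether the effect of formoterol differed with and without fatty acids, 2 passed. The log2 difference was 0.62 ± 0.14 for ADRA1A (edgeR adjusted p = 0.0140), where the combination libraries were at 85.4 to 104 CPM and the formoterol libraries at 57.4 to 80.1 CPM. It was 0.77 ± 0.22 for RGS2 (edgeR adjusted p = 0.0445), a call that 10 of 16 single-library omissions removed.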

How the results depend on the processing

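Of the comparisons of single genes that were called, 209 of the 251 recomputed values stayed called in the same direction, 42 lost the call and 0 changed sign. Of those that were not called, 922 kept their direction without a call, 7 passed the threshold and 53 changed sign, all of them without a call. With total counts in place of TMM, the median of all genes moved by -0.13 for formoterol against control, 0.13 for combination against formoterol and 0.16 for the difference of effects (log2). The split of calls then became 485 higher and 1918 lower against 1043 and 829 with TMM for formoterol against control, 2965 and 696 against 1717 and 1625 for combination against formoterol, and 1030 and 351 against 384 and 613 for the difference of effects. Under that scaling 2 of the 10 genes were called for formoterol against control and 2 for combination against formoterol, and these values changed sign: for formoterol against control ADCY6 (-0.037), ADCY9 (-0.087) and GRK2 (-0.094), for fatty acids against control ADCY9 (-0.0061), for combination against fatty acids GNAS (0.022), for combination against formoterol GNAS (0.054), ADCY9 (0.12) and GRK5 (0.11), and for the difference of effects ADCY6 (0.072) and ADCY9 (0.13).

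Without a filter the genes called were 880 for combination against fatty acids, against 507, and 1523 for the difference of effects, against 997. DESeq2's Wald test called 805 for combination against fatty acids, and a fit of those 2 groups only called 275. GNAS for combination against fatty acids, near 0 throughout, had 0.00021 with no filter, 0.00082 with the 1 CPM filter and 0.00098 with only 2 groups. ADCY9 for combination against formoterol had 0.00054 with the 1 CPM filter and 0.0044 with only 2 groups, and the difference of effects of GRK5 was -0.0053 with no filter. The difference of effects has no value from a fit of 2 groups, since it needs all 4.

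Leaving out each library in turn gave 1002 to 2588 genes called for formoterol against control, 302 to 590 for combination against fatty acids and 444 to 1325 for the difference of effects. Of the 10 genes, 2 to 4 were then called for formoterol against control, 0 to 2 for fatty acids against control and 1 to 2 for the difference of effects. Uncalled log2 values whose range crossed 0 were, for combination against fatty acids, ADCY6 (-0.016 to 0.051), ADCY9 (-0.022 to 0.069), GNAS (-0.027 to 0.014) and GRK5 (-0.12 to 0.017), and for combination against formoterol ADCY6 (-0.0033 to 0.19), ADCY9 (-0.052 to 0.035) and GRK5 (-0.074 to 0.015). For formoterol against control they were ADCY6 (-0.018 to 0.17) and GRK5 (-0.11 to 0.000027), for fatty acids against control ADCY9 (-0.029 to 0.039) and GRK5 (-0.093 to 0.039), and for combination against control ADCY9 (-0.0071 to 0.073). For the difference of effects they were ADCY6 (-0.16 to 0.034), ADCY9 (-0.067 to 0.024), GRK2 (-0.015 to 0.060) and GRK5 (-0.067 to 0.066).

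The correlations between libraries gave no clear sign that the replicate numbers of the labels pair them. Deviations of same-numbered libraries from their group means correlated at -0.113 to 0.0825 (24 pairs, 0 above 0.1). Those of different-numbered libraries correlated at -0.101 to 0.138 (72 pairs, 1 above 0.1). Of the 16 libraries 7 correlated best with one of their own number, and whether this exceeds chance was not tested. With the replicate block, 1967 genes were called for formoterol against control, 3108 for fatty acids against control, 2583 for combination against control, 537 for combination against fatty acids, 3447 for combination against formoterol and 1089 for the difference of effects. Without the block these counts were 1872, 2998, 2583, 507, 3342 and 997, in the same order. With the block GNAS for formoterol against control had an adjusted p of 0.0549 and ADRA1A for combination against control one of 0.0387, and no other call of the 9 genes changed. Depth limits ADRA1B, at 0 to 11 counts, and ARRB1, at 28 to 141, most. The causes of these changes were not tested.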
